A study of Mus musculus with 64 samples.

Results

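The genes described here are the 40 genes of a replication and nucleotide supply list, read by symbol from a table of 20637 mouse genes, and all 40 were present. They comprise 10 genes for origin recognition and helicase loading (Orc1, Orc6, Cdc6, Cdt1 and Mcm2 to Mcm7), 6 for helicase activation (Mcm10, Cdc45 and Gins1 to Gins4), and 7 for polymerases and primase (Pola1, Pola2, Prim1, Prim2, Pold1, Pole and Pole2). A further 6 encode the sliding clamp and its loader (Pcna and Rfc1 to Rfc5), and 2 act in lagging strand maturation (Fen1 and Lig1). There were 4 genes for nucleotide supply (Rrm1, Rrm2, Tyms and Tk1), 4 for chromatin assembly and methylation copying (Uhrf1, Dnmt1, Chaf1a and Chaf1b), and 1 for the replication checkpoint (Clspn).

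The hearts of CD1 mice, an outbred strain, were separated into 4 cell populations and their RNA was sequenced in 64 libraries that fall into 16 groups of 4. The groups were P56 MI, P56 sham, P1 MI and P1 sham, each prepared for cardiomyocytes, fibroblasts, leukocytes and endothelial cells. MI is myocardial infarction made by tying the left anterior descending coronary artery, and sham animals had the operation without it. P56 animals were adult males operated on at postnatal day 56, P1 animals were neonates operated on at postnatal day 1, and in both cases cells were taken 3 days later. Neonatal ventricles were pooled in groups of 6 before digestion whereas adult hearts were perfused, so that age, the sex of the adults and the isolation method cannot be told apart. Cardiomyocytes were a dense fraction of a Percoll gradient and were not sorted. Fibroblasts were sorted as CD90+/CD45-/CD31-, leukocytes as CD45+ and endothelial cells as CD31+/CD45-. The labels do not say whether the 4 libraries of a group came from separate animals or pools, and the tests then measure only the spread between those libraries, which may be technical.

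Replication begins when the origin recognition complex, with Cdc6 and Cdt1, loads the Mcm2 to Mcm7 helicase onto DNA in G1. Cdc45, the GINS proteins and Mcm10 then turn the loaded ring into an active helicase, polymerase alpha with primase starts each strand, and polymerases delta and epsilon extend it while tethered to the PCNA clamp. Ribonucleotide reductase, thymidylate synthase and thymidine kinase supply deoxynucleotides, and CAF-1, Uhrf1 and Dnmt1 rebuild chromatin and DNA methylation behind the fork. Most of these genes are transcribed at the G1 to S transition under E2F factors. Mouse cardiomyocytes stop dividing within days of birth, which is why neonatal and adult hearts are compared for regeneration.

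Promoter windows were matched by symbol for 33 of the 40 genes, not for Gins1, Gins2, Gins4, Mcm4, Pole, Prim2 and Rfc2. Each window runs from 250 bases before to 50 bases after an annotated start (RefSeq, GRCm38.p6). E2F-type 8-mers (TTTCCCGC, TTTGGCGC, TTTGCCGC or TTTCGCGC, either strand) were present in 16 of the 33, or 48.5%. By window, 16 of 40 held at least 1 (40.0%), against 744 of 32851 windows over all genes (2.26%). CCAAT, the letters bound by NF-Y, was in 60.0% of the genes' windows and in 37.4% of all windows. TTTGAA, the core of the CHR element of mitotic genes, was in 12.5% against 17.9%. These are letter matches and no binding was measured.

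The 8 windows below were chosen to set genes with large changes (Mcm5, Cdc6, Uhrf1 and Rrm2) beside genes whose changes were small or absent in cardiomyocytes (Pcna after infarction and Rfc1) and Tk1, the salvage enzyme. Capitals mark E2F-type 8-mers and CCAAT on either strand, read 5′ to 3′ on the strand of the gene. The windows of Cdc6 and the second of Uhrf1 were added after their matches had been seen.
Mcm5, chr8:75109259-75109558, plus strand: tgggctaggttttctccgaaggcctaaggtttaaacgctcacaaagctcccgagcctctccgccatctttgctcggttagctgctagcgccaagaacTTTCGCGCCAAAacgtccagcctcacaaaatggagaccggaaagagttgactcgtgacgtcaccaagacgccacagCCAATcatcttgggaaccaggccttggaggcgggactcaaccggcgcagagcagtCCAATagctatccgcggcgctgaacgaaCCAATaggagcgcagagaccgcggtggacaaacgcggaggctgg
Cdc6, chr11:98907901-98908200, plus strand: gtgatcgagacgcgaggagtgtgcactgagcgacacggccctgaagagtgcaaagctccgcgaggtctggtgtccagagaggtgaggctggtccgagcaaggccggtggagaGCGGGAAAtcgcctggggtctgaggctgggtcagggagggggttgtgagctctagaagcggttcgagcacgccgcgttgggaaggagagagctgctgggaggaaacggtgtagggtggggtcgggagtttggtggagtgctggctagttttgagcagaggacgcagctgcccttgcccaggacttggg
Uhrf1, chr17:56303087-56303386, plus strand: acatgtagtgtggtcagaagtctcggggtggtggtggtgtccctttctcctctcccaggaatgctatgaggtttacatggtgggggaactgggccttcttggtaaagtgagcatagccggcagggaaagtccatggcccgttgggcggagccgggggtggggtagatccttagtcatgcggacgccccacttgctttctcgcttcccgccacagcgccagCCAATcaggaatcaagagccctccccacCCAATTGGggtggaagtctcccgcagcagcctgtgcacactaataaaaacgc
Uhrf1, chr17:56304063-56304362, plus strand: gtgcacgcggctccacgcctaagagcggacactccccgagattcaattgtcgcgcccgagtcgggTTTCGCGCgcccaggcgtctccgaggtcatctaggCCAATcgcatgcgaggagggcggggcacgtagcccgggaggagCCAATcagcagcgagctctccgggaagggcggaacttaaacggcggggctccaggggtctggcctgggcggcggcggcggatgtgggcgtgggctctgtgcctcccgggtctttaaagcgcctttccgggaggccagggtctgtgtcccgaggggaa
Rrm2, chr12:24708004-24708303, plus strand: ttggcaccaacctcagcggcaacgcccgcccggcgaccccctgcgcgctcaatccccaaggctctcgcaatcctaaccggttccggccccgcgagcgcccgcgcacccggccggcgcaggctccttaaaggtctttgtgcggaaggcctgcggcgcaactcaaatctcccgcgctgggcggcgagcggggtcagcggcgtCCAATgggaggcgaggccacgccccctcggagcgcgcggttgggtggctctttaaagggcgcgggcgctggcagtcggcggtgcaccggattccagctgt
Pcna, chr2:132253131-132253430, minus strand: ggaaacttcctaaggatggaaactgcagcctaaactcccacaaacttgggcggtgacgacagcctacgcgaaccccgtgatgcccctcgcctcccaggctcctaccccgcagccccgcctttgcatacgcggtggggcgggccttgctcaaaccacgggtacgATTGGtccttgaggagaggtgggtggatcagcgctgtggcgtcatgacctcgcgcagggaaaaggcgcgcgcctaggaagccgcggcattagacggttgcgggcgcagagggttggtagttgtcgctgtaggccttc
Rfc1, chr5:65335590-65335889, minus strand: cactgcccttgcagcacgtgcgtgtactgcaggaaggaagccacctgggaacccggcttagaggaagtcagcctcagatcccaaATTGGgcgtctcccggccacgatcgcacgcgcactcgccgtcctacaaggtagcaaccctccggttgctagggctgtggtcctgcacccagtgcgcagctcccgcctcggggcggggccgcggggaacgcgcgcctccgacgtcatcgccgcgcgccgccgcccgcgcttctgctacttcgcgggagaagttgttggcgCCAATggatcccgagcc
Tk1, chr11:117825965-117826264, minus strand: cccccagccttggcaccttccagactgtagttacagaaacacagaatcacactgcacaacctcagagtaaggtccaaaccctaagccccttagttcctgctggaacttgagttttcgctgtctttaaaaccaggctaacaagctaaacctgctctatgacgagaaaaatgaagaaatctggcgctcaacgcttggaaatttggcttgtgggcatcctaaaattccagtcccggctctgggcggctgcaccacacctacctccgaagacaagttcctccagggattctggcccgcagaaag
Mcm5 held 2 overlapping E2F-type 8-mers and 3 CCAAT, Cdc6 held 1 E2F-type 8-mer, and the windows of Uhrf1 held 0 and 1. In the authors' deposited table (GRCm38 coordinates) the Uhrf1 gene spans chr17:56303321-56323486 on the plus strand, Gins4 chr8:23226610-23237668 on the minus strand and Rfc1 chr5:65261850-65335670 on the minus strand. Rrm2, Pcna, Rfc1 and Tk1 held no such 8-mer in these windows.

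Libraries held 9.59 M to 27.5 M assigned reads (median 20.6 M), and 3 reads are worth 0.102 to 0.409 CPM. CPM, the reads of a gene scaled to the authors' effective library size, is the unit of every level given here. Intervals drawn from such counts would cover counting error only. In 7 libraries more than 5% of reads were 18S ribosomal RNA, among them P1 sham cardiomyocyte library 2 (16.6%), which was the lowest of its group for 30 of the 40 genes. By group medians each population had the highest sum of its own markers among the 4 at the same age and operation, but cardiomyocyte transcripts reached the other populations as well. In P56 sham leukocyte library 1 the 14 cardiomyocyte markers summed to 210360 CPM, inside the range of P56 sham cardiomyocytes themselves (192994 to 223716 CPM), and its leukocyte markers summed to 1645 CPM against 2707 to 3120 CPM in the other 3. That library was the lowest of its group for 33 of the 40 genes. Its cardiomyocyte sum rested largely on Ttn, at 48258 to 135919 CPM in P56 sham leukocytes and 18822 to 29659 CPM in P56 sham cardiomyocytes. Tnnt2 went the other way, at 1211 to 3607 CPM in these leukocytes and 6284 to 9695 CPM in these cardiomyocytes. So did Myl2, at 936 to 2515 CPM and 18434 to 21421 CPM. The sum alone thus does not show as much cardiomyocyte RNA as in cardiomyocyte libraries. The P56 MI library numbered 2 was the lowest of its group for 39 of 40 genes in fibroblasts, 37 in endothelial cells, 35 in leukocytes and 27 in cardiomyocytes. The labels do not say whether libraries that share a number came from the same hearts. In bulk RNA, fewer cells of a type and less RNA per cell cannot be told apart.

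**Figure D1:**
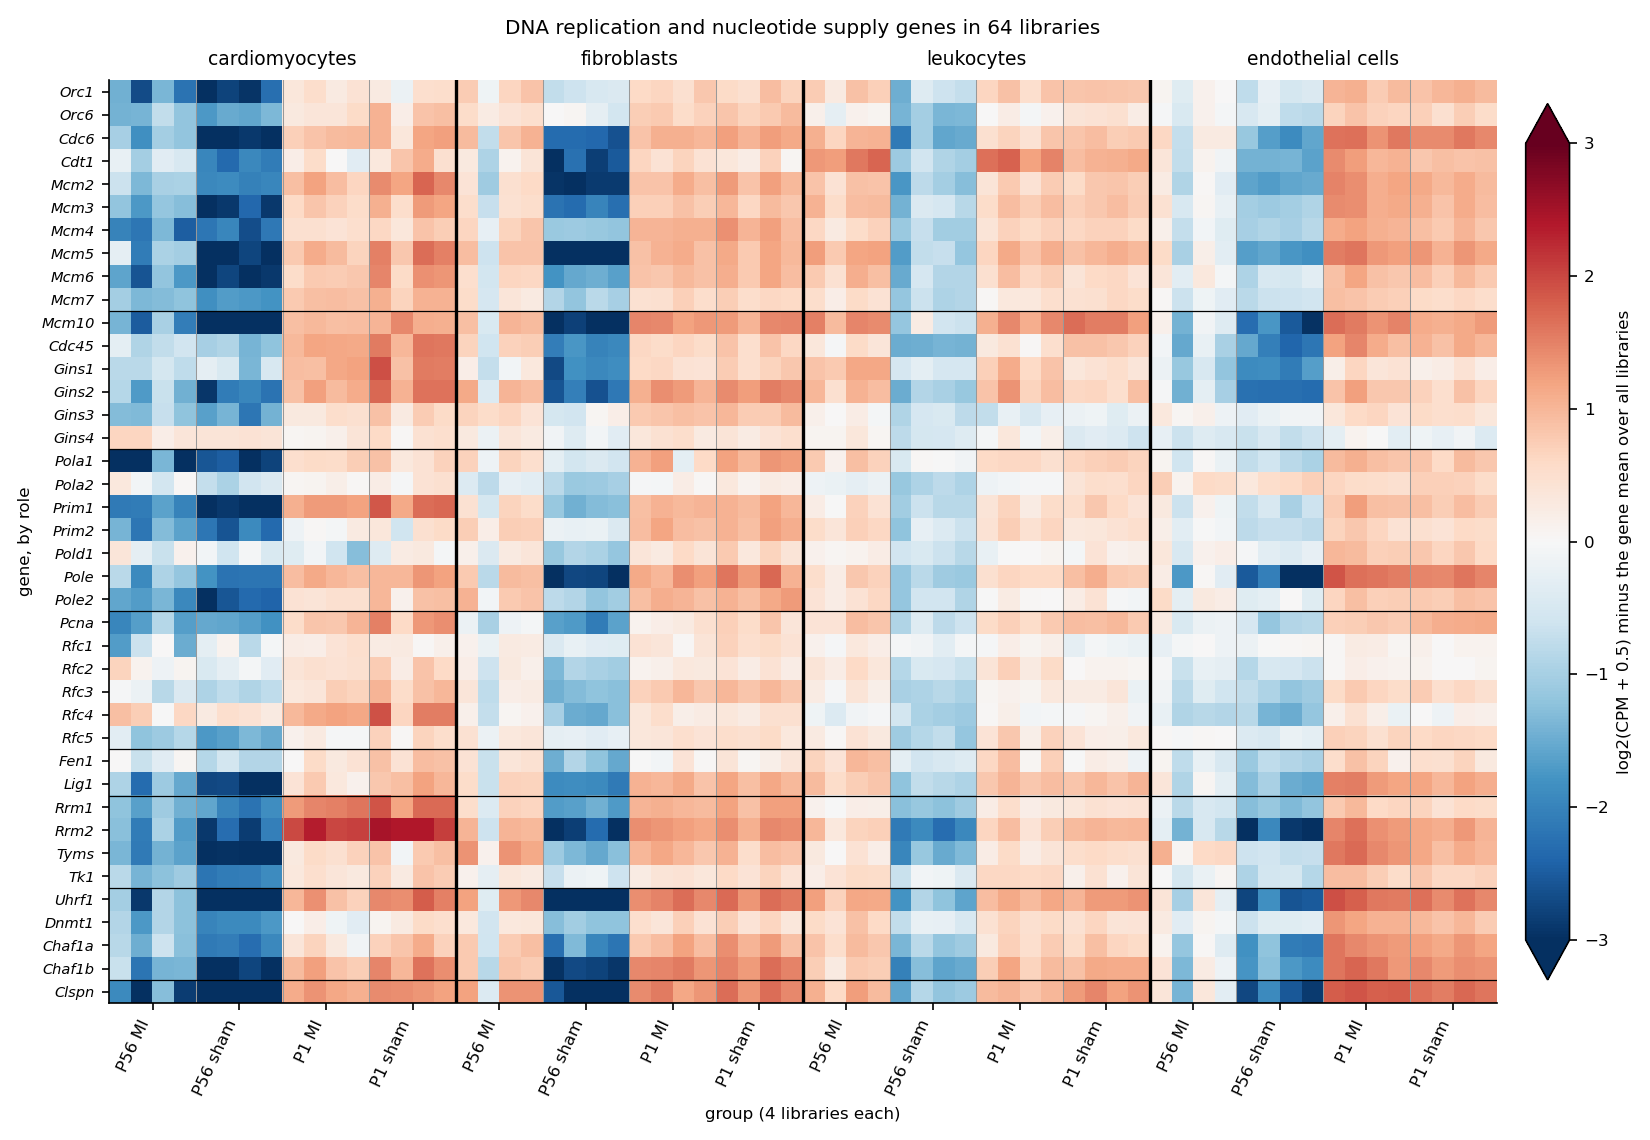
Each row is 1 of the 40 genes and each column 1 of the 64 libraries, ordered by population and then P56 MI, P56 sham, P1 MI and P1 sham; colour is log2(CPM + 0.5) minus the gene's mean over all libraries, clipped at 3 either way. P56 sham columns are lowest in every population for most genes, and Gins4 and Pold1 are among the rows with little contrast in cardiomyocytes.

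The median of the 40 genes gives a view of each library. In cardiomyocytes it was 9.32, 5.28, 8.49 and 7.90 CPM in P56 MI, 4.16, 4.58, 4.29 and 4.56 CPM in P56 sham, 22.8, 26.2, 24.4 and 24.6 CPM in P1 MI, and 31.4, 23.9, 32.8 and 31.8 CPM in P1 sham. In fibroblasts it was 26.2, 15.2, 26.2 and 26.6 CPM in P56 MI, 5.07, 4.72, 5.44 and 5.27 CPM in P56 sham, 27.3, 28.1, 29.4 and 27.3 CPM in P1 MI, and 33.6, 27.6, 31.6 and 29.8 CPM in P1 sham. Adult sham libraries were thus the lowest in both populations, and 3 of 4 infarcted adult fibroblast libraries lay just below the lowest neonatal fibroblast library (27.3 CPM). Leukocyte medians were 23.5, 21.4, 26.4 and 24.0 CPM in P56 MI, 6.96, 10.8, 10.0 and 7.50 CPM in P56 sham, 23.0, 26.3, 22.1 and 25.9 CPM in P1 MI, and 25, 25.7, 24.6 and 25.5 CPM in P1 sham. Endothelial medians were 19.3, 11, 17.2 and 17.1 CPM in P56 MI, 9.60, 11.1, 8.20 and 7.74 CPM in P56 sham, 36.8, 37.6, 34.7 and 33.6 CPM in P1 MI, and 33.0, 31.2, 33.3 and 30.4 CPM in P1 sham. Endothelial P56 MI and P56 sham overlapped through 1 library on each side, both numbered 2.

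**Figure D2:**
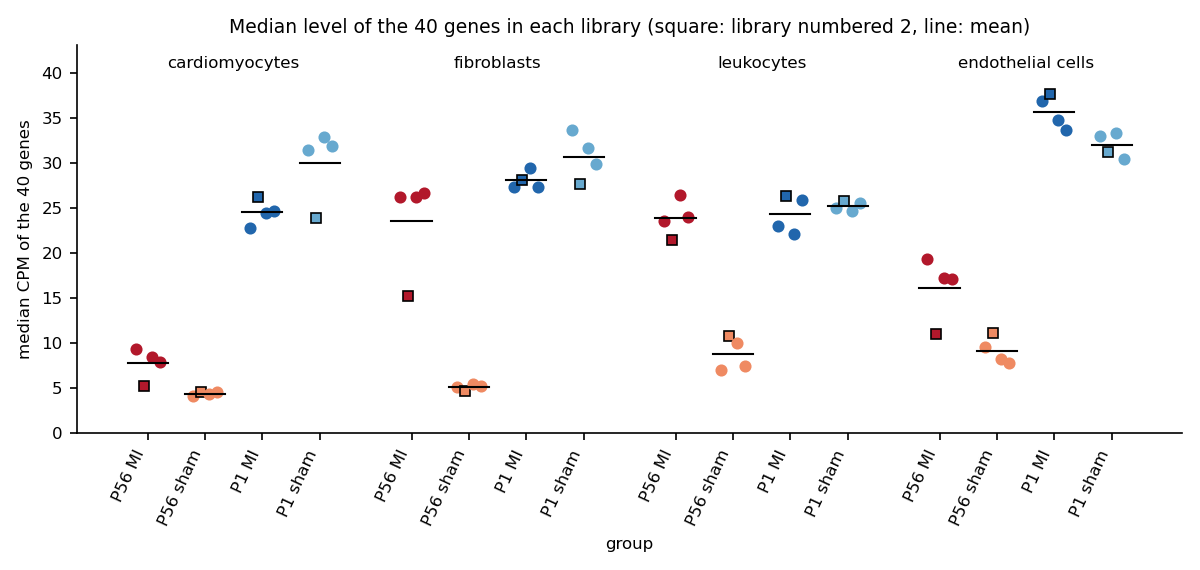
Points are the median CPM of the 40 genes in each library, by population and group in the order P56 MI, P56 sham, P1 MI and P1 sham; squares are libraries numbered 2 and lines are group means of 4 libraries. The P56 MI square is the lowest point of its group in all 4 populations.

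P56 sham was compared with P1 sham to show how the genes stood in the adult and the neonatal heart without infarction. In cardiomyocytes 37 of the 40 fell and none rose, with limma on log2(CPM + 0.5) and Benjamini-Hochberg adjustment over all genes at 0.05, where 37% of all tested genes were called lower and 70.3% in either direction. The median log2 fold change of the 40 was -2.90, against -0.09 over all tested genes. The largest decreases were in Uhrf1, which recognises newly copied half-methylated DNA, Clspn, the checkpoint mediator, Prim1, the catalytic subunit of primase, Mcm10, and Rrm2, the cell-cycle-regulated subunit of ribonucleotide reductase. Gins4, Pold1 and Rfc1 were not called, and without P1 sham library 2 the count was again 37, with a median of -3.0.

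All 10 helicase loading genes fell in adult cardiomyocytes. Mcm5, a subunit of the helicase ring, had 4.47, 4.62, 5.72 and 3.29 CPM in P56 sham, against 118, 73.3, 133 and 119 CPM in P1 sham, and the groups did not overlap (log2 fold change -4.45 ± 0.29, SE, limma adjusted p = 2.03e-10). Mcm6, another ring subunit, had 5.46, 10.6, 8.58 and 9.53 CPM in P56 sham, against 204, 110, 192 and 185 CPM in P1 sham (log2 fold change -4.26 ± 0.26, SE, limma adjusted p = 1.26e-10). Both neonatal groups had their low value in library 2. Cdc6, a loading factor, had 0.124, 0.283, 0.477 and 0.28 CPM in P56 sham, against 14.5, 8.62, 15.9 and 16.5 CPM in P1 sham, so that adult values lay near the level of 3 reads (log2 fold change -4.16 ± 0.23, SE, limma adjusted p = 4.12e-11). The smallest decrease among the 10 was in Orc6, a small subunit of the origin recognition complex, at -2.28 ± 0.20 (log2, SE).

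Among the activation and polymerase genes the decreases were uneven. Mcm10, which helps open the origin, had 0, 0.283, 0.119 and 0.14 CPM in P56 sham, against 16.3, 22.1, 17.2 and 16.9 CPM in P1 sham. The adult group held 6 reads in all, so the fitted value of -4.88 (log2) depends on the pseudocount. Gins4, a GINS subunit, had 24.5, 24.7, 25.3 and 24.6 CPM in P56 sham, against 28.7, 19.2, 25.9 and 27.0 CPM in P1 sham, and the groups overlapped fully (log2 fold change -0.01 ± 0.16, SE, limma adjusted p = 0.962). Prim1 had 0.372, 1.13, 0.596 and 0.561 CPM in P56 sham, against 43.9, 26.4, 38.6 and 39.6 CPM in P1 sham (log2 fold change -5.03 ± 0.21, SE, limma adjusted p = 1.62e-12). Pold1, the catalytic subunit of polymerase delta, which makes the lagging strand, had 23.5, 16.4, 24.2 and 18.2 CPM in P56 sham, against 19.1, 29.8, 30.6 and 24.0 CPM in P1 sham (log2 fold change -0.32 ± 0.26, SE, limma adjusted p = 0.276). Prim1 was separated between the ages without overlap, whereas Pold1 overlapped.

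For the clamp, nucleotide and chromatin genes, Pcna itself had 10.7, 10.5, 9.89 and 8.76 CPM in P56 sham, against 92.3, 49.0, 79.2 and 85.1 CPM in P1 sham (log2 fold change -2.84 ± 0.22, SE, limma adjusted p = 3.06e-09). The subunits of its loader changed less, by -2.04 (Rfc5) to -0.44 (Rfc1) on the log2 scale, and Rfc1, the large subunit, was not called (limma adjusted p = 0.165). Rrm2 had 1.49, 2.55, 1.55 and 3.08 CPM in P56 sham, against 82.0, 77.5, 77.4 and 62.1 CPM in P1 sham (log2 fold change -4.86 ± 0.24, SE, limma adjusted p = 7.41e-12). Its partner Rrm1 fell by 3.52 on the log2 scale and Tk1, which salvages thymidine, by 2.71. Uhrf1 had 0.993, 1.04, 0.715 and 1.12 CPM in P56 sham, against 56.5, 55.0, 73.2 and 59.9 CPM in P1 sham (log2 fold change -5.39 ± 0.32, SE, limma adjusted p = 6.83e-11), the largest decrease of the 40. Dnmt1, the maintenance methyltransferase, fell by 2.24.

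Ribosomal RNA of mitochondria took 23.1 to 38.2% of reads in P56 sham cardiomyocytes and 6.96 to 16% in P1 cardiomyocytes. Scaling to nuclear genes alone moved the median of all genes by -0.78 (log2) in this comparison and gave 40 of 40 genes lower. The background share of lower genes given above was taken without that scaling. It does not apply to this count, which is not read as a result about the list. In cardiomyocyte libraries the fibroblast markers had a median sum of 579 CPM in P56 sham and 5884 CPM in P1 sham, and the erythroid markers had one of 22.1 CPM in P56 sham and 1444 CPM in P1 sham. The share of these other cells in the decrease was not tested.

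The other populations showed the same direction. In P56 sham fibroblasts all 40 genes were lower than in P1 sham (background 32.1% lower, median log2 -2.30). Uhrf1 had 0.84, 1.65, 0.806 and 0.942 CPM in P56 sham, against 67.7, 52.1, 66.9 and 62.1 CPM in P1 sham (log2 fold change -5.35 ± 0.29, SE, limma adjusted p = 1.58e-10), and the groups lay far apart. Mcm10, Clspn, Pole, Mcm5, Chaf1b, Rrm2 and Mcm2 also fell by more than 4 log2 units. In leukocytes 38 of 40 fell (background 34.5%, median -1.58), and without P56 sham library 1 the count was again 38, with a median of -1.40. Rrm2 had the largest decrease there, with 2.91, 3.42, 2.53 and 3.36 CPM in P56 sham, against 28.1, 29.8, 28.4 and 29.3 CPM in P1 sham (log2 fold change -3.05 ± 0.14, SE, limma adjusted p = 6.36e-11). In endothelial cells 38 of 40 fell (background 29.3%, median -1.64). Pole, the catalytic subunit of the leading strand polymerase, had 3.88, 5.59, 2.67 and 2.56 CPM in P56 sham, against 69.2, 67.3, 75.3 and 68.7 CPM in P1 sham (log2 fold change -4.14 ± 0.31, SE, limma adjusted p = 7.45e-09). Rfc1 was not called in leukocytes (0.02) or endothelial cells (-0.12), nor were Gins4 in leukocytes (-0.09) and Pola2 in endothelial cells (-0.14).

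Markers of other cells differed between the ages in these populations too, given as group medians of summed markers. In leukocyte libraries the cardiomyocyte markers stood at 92991 CPM in P56 sham and 22938 CPM in P1 sham, and the endothelial markers at 597 CPM in P56 sham and 4566 CPM in P1 sham. The neutrophil markers stood at 42.6 CPM in P56 sham and 2734 CPM in P1 sham, and the erythroid markers at 14.4 CPM in P56 sham and 613 CPM in P1 sham. Cardiomyocyte markers were also higher at P56 in fibroblast libraries, at 3988 CPM in P56 sham and 366 CPM in P1 sham, and in endothelial libraries, at 14360 CPM in P56 sham and 730 CPM in P1 sham. The part of these transcripts in the age differences was not tested.

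**Figure D3:**
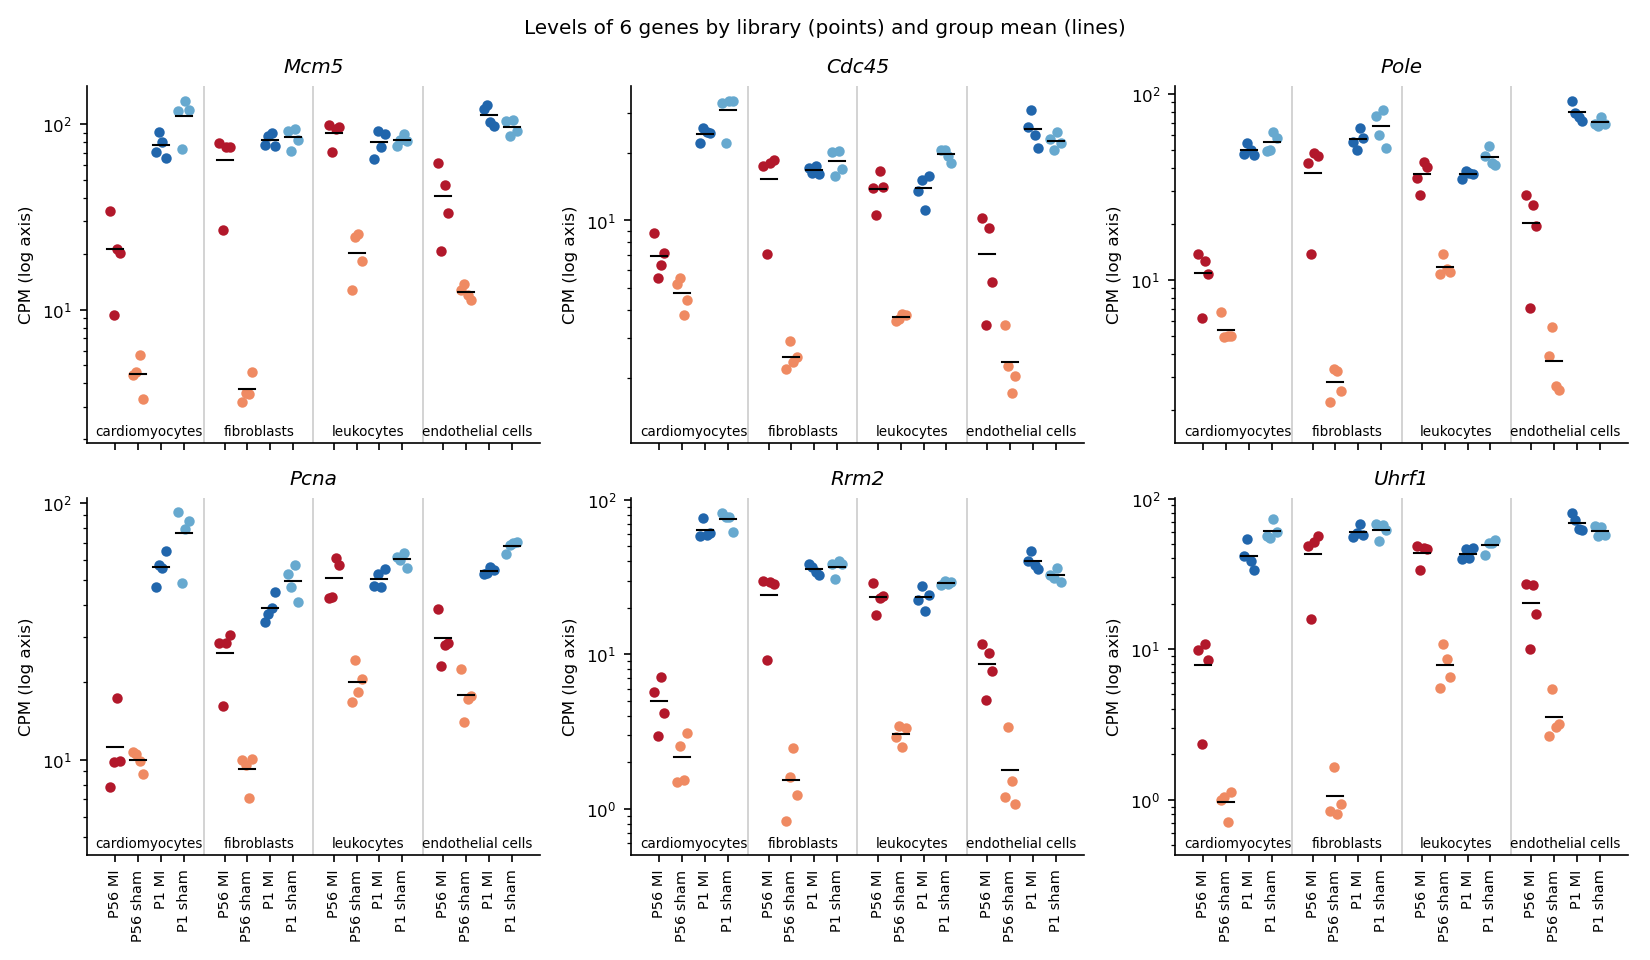
Each panel shows the CPM of 1 gene (Mcm5, Cdc45, Pole, Pcna, Rrm2 and Uhrf1) in every library on a log axis, by population and in the order P56 MI, P56 sham, P1 MI and P1 sham. P56 sham points lie below both neonatal groups in all 4 populations, and fibroblast P56 MI library 2 lies below the other 3 of its group.

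The adult response to infarction, P56 MI against P56 sham, had its largest median fold change in fibroblasts. All 40 genes rose there, where 24.8% of all tested genes were called higher, and the median log2 fold change was 1.62 against -0.03 for all genes. In 38 of the 40 the groups did not overlap, where 21.7% of all genes were higher without overlap, and Gins4 and Tk1 were the exceptions. The rise reached every role, from 0.41 (Gins4) to 4.68 (Uhrf1) on the log2 scale. These 2 adult groups also differ in their cardiomyocyte marker sum, with medians of 738 CPM in P56 MI and 3988 CPM in P56 sham fibroblasts, and its part in the result was not tested.

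Uhrf1 had 48.4, 15.9, 51.1 and 56.5 CPM in P56 MI fibroblasts, against 0.84, 1.65, 0.806 and 0.942 CPM in P56 sham (log2 fold change 4.68 ± 0.29, SE, limma adjusted p = 7.02e-09). Mcm5 had 78.6, 26.7, 75.6 and 75.5 CPM in P56 MI, against 3.17, 3.57, 3.51 and 4.63 CPM in P56 sham (log2 fold change 3.83 ± 0.25, SE, limma adjusted p = 1.16e-08). Every infarcted library exceeded every sham library for both genes, and P56 MI library 2 lay between the other infarcted libraries and sham. Clspn had 25.2, 7.86, 27.7 and 27.7 CPM in P56 MI, against 1.42, 0.826, 0.863 and 0.514 CPM in P56 sham (log2 fold change 3.89 ± 0.30, SE, limma adjusted p = 5.11e-08). Pole had 42.7, 13.8, 48.2 and 46.2 CPM in P56 MI, against 2.2, 3.3, 3.22 and 2.53 CPM in P56 sham (log2 fold change 3.39 ± 0.29, SE, limma adjusted p = 1.67e-07). The same shape, with library 2 low, was seen in Rrm2, which had 29.7, 9.15, 29.4 and 28.7 CPM in P56 MI, against 0.84, 1.61, 2.47 and 1.24 CPM in P56 sham (log2 fold change 3.52 ± 0.30, SE, limma adjusted p = 1.42e-07).

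Other fibroblast genes rose by less. Pcna had 28.4, 16.2, 28.6 and 30.7 CPM in P56 MI, against 10.0, 9.52, 7.08 and 10.1 CPM in P56 sham (log2 fold change 1.43 ± 0.17, SE, limma adjusted p = 7.03e-06). Tyms, which makes thymidylate, had 43.2, 18.4, 43.6 and 37.1 CPM in P56 MI, against 7.63, 6.22, 5.47 and 6.72 CPM in P56 sham (log2 fold change 2.30 ± 0.21, SE, limma adjusted p = 3.11e-07). Gins4 had 23.1, 16.6, 24.2 and 22.6 CPM in P56 MI, against 17.5, 14.2, 17.6 and 14.8 CPM in P56 sham, with library 2 inside the sham range (log2 fold change 0.41 ± 0.12, SE, limma adjusted p = 0.00829). Without P56 MI library 2 the count was 40 as well and the median was 1.86. Dnmt1 averaged 135 ± 35.9 CPM in P56 MI and 53.4 ± 3.57 CPM in P56 sham (mean ± SD, n = 4 each).

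Members of the remaining roles followed the same pattern in fibroblasts. Mcm2 had 56.6, 20.1, 59.4 and 64.6 CPM in P56 MI, against 5.11, 4.48, 5.41 and 5.4 CPM in P56 sham (log2 fold change 3.05 ± 0.25, SE, limma adjusted p = 1.15e-07). Cdc45, which joins the helicase ring at activation, had 17.5, 7.09, 18 and 18.6 CPM in P56 MI, against 2.2, 2.91, 2.36 and 2.48 CPM in P56 sham (log2 fold change 2.32 ± 0.22, SE, limma adjusted p = 4.76e-07). Neither gene overlapped between the groups. Gins2, a GINS subunit, had 13.8, 4.46, 12.7 and 11.9 CPM in P56 MI, against 0.582, 1.09, 0.576 and 0.985 CPM in P56 sham (log2 fold change 3.01 ± 0.25, SE, limma adjusted p = 1.35e-07). Lig1, the ligase that seals Okazaki fragments, had 35.5, 14.9, 39.4 and 38.4 CPM in P56 MI, against 6.14, 6.22, 6.04 and 5.14 CPM in P56 sham (log2 fold change 2.26 ± 0.22, SE, limma adjusted p = 5.81e-07). Both were again lowest in infarcted library 2, which still exceeded every sham library. Tk1 had 20.5, 15.4, 23.8 and 22.8 CPM in P56 MI, against 11.4, 16.6, 17.0 and 11.9 CPM in P56 sham, and its groups overlapped (log2 fold change 0.52 ± 0.14, SE, limma adjusted p = 0.00657).

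In leukocytes all 40 genes rose after adult infarction (background 30.7% higher, median log2 1.39), and none of the 40 overlapped between groups (background 26.3%). Rrm2 had 28.9, 18, 23.2 and 23.8 CPM in P56 MI, against 2.91, 3.42, 2.53 and 3.36 CPM in P56 sham (log2 fold change 2.74 ± 0.14, SE, limma adjusted p = 1.59e-09). Cdc6 had 14.6, 10.8, 14.2 and 14.4 CPM in P56 MI, against 1.17, 3.07, 1.95 and 2.03 CPM in P56 sham (log2 fold change 2.49 ± 0.18, SE, limma adjusted p = 5.09e-08). Both genes were several times higher in each infarcted library than in any sham library. Cdt1, the partner of Cdc6 in loading, had 23.6, 22.6, 28.4 and 31.8 CPM in P56 MI, against 4.03, 5.98, 4.7 and 4.31 CPM in P56 sham (log2 fold change 2.37 ± 0.14, SE, limma adjusted p = 1.25e-08). Rfc1 had the smallest rise, with 68.8, 62.1, 78.5 and 72.7 CPM in P56 MI, against 61.5, 58.3, 50.6 and 60.4 CPM in P56 sham (log2 fold change 0.29 ± 0.09, SE, limma adjusted p = 0.0146). Mcm2 had 77.4, 57.6, 78.1 and 77.7 CPM in P56 MI, against 12.3, 24.3, 20.9 and 17.2 CPM in P56 sham (log2 fold change 1.96 ± 0.17, SE, limma adjusted p = 3.19e-07). The sham values of Rfc1 lay close under the infarcted ones, whereas no sham library of Mcm2 came near the infarcted range. Cdc45 had 14.0, 10.6, 16.5 and 14.1 CPM in P56 MI, against 3.58, 3.66, 3.85 and 3.79 CPM in P56 sham (log2 fold change 1.75 ± 0.13, SE, limma adjusted p = 7.53e-08). Tk1 had 21.7, 24.9, 28.1 and 27.7 CPM in P56 MI, against 11.6, 17.6, 17.1 and 13.7 CPM in P56 sham (log2 fold change 0.76 ± 0.13, SE, limma adjusted p = 1.08e-04).

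The adult leukocyte groups differed in marker levels as well. Cardiomyocyte markers summed to a median of 12030 CPM in P56 MI and 92991 CPM in P56 sham, and the general leukocyte markers to 5121 CPM in P56 MI and 2759 CPM in P56 sham. Leaving out P56 sham library 1 gave 40 of 40 genes called and a median of 1.27, and leaving out P56 MI library 2 gave 40 and 1.46. The remaining 3 sham libraries still held 76959 to 103985 CPM of cardiomyocyte markers, and the part of these transcripts in the rise was not tested. Ttn weighs heavily in these sums, with a mean of 75108 CPM in P56 sham leukocytes.

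In endothelial cells 33 of 40 genes rose and none fell (background 12.5% higher, median log2 0.68, against 0.02 over all genes). The 7 not called were Gins3, Gins4, Pola2, Pold1, Rfc1, Rfc2 and Rfc4. Uhrf1 had 26.9, 10.0, 26.5 and 17.0 CPM in P56 MI, against 2.64, 5.4, 3.02 and 3.16 CPM in P56 sham (log2 fold change 2.29 ± 0.25, SE, limma adjusted p = 2.34e-05). Clspn had 13.9, 3.75, 13.6 and 8.51 CPM in P56 MI, against 1.19, 2.49, 1.41 and 1.03 CPM in P56 sham (log2 fold change 2.26 ± 0.29, SE, limma adjusted p = 8.38e-05). The ranges were separate for both genes, but library 2 was the lowest of the infarcted and the highest of the sham libraries in each. Pole had 28.7, 7.08, 25.2 and 19.4 CPM in P56 MI, against 3.88, 5.59, 2.67 and 2.56 CPM in P56 sham (log2 fold change 2.19 ± 0.31, SE, limma adjusted p = 1.50e-04). Rfc1 had 53.5, 60.8, 63.4 and 57.3 CPM in P56 MI, against 56.1, 62.6, 64.8 and 65.8 CPM in P56 sham, with overlapping groups (log2 fold change -0.08 ± 0.07, SE, limma adjusted p = 0.448). Without P56 MI library 2, 36 of 40 genes were called, now with Pold1 (0.47, limma adjusted p = 0.00222), Rfc2 (0.44, limma adjusted p = 0.00209) and Rfc4 (0.57, limma adjusted p = 0.0359), and the median was 0.81. With a fold of at least 2 required, the count was 16 (background 4.44%). Fitting only the 8 adult libraries gave 25.

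Rrm2 had 11.6, 5.08, 10.2 and 7.79 CPM in P56 MI endothelial cells, against 1.19, 3.39, 1.51 and 1.07 CPM in P56 sham (log2 fold change 2.04 ± 0.25, SE, limma adjusted p = 6.14e-05). Lig1 had 31.3, 12.7, 25 and 19.5 CPM in P56 MI, against 9.56, 12.1, 8.25 and 7.82 CPM in P56 sham (log2 fold change 1.13 ± 0.20, SE, limma adjusted p = 8.41e-04). For both genes every infarcted library was above every sham library. Cdc45 had 10.3, 3.42, 9.22 and 5.35 CPM in P56 MI, against 3.43, 2.25, 1.71 and 2.05 CPM in P56 sham, with infarcted library 2 and sham library 1 overlapping (log2 fold change 1.33 ± 0.25, SE, limma adjusted p = 0.00166). Cardiomyocyte markers had median sums of 7935 CPM in P56 MI and 14360 CPM in P56 sham endothelial cells, and general leukocyte markers 93.5 CPM in P56 MI and 23.6 CPM in P56 sham. Their part in the rise was not tested.

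In cardiomyocytes 23 of 40 genes rose and none fell after adult infarction (background 8.66% higher, median log2 0.79, against 0.08 over all genes). The chromatin genes rose in 4 of 4, the helicase loading genes in 7 of 10, and the nucleotide genes in 3 of 4, whereas the clamp and its loader rose in 1 of 6. In 21 of the 40 the groups did not overlap and P56 MI was higher, where the background was 8.91%. Fitting only the 8 adult libraries gave 13 genes in place of 23.

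Uhrf1 had 9.82, 2.34, 10.9 and 8.42 CPM in P56 MI cardiomyocytes, against 0.993, 1.04, 0.715 and 1.12 CPM in P56 sham (log2 fold change 2.34 ± 0.32, SE, limma adjusted p = 1.07e-04). Mcm5 had 34.0, 9.35, 21.3 and 20.1 CPM in P56 MI, against 4.47, 4.62, 5.72 and 3.29 CPM in P56 sham (log2 fold change 2.00 ± 0.29, SE, limma adjusted p = 1.66e-04). Infarcted libraries were above sham throughout, with library 2 nearest to sham. Cdc6 had 3.14, 1.53, 3.06 and 2.69 CPM in P56 MI, against 0.124, 0.283, 0.477 and 0.28 CPM in P56 sham (log2 fold change 1.95 ± 0.23, SE, limma adjusted p = 4.40e-05), and the sham group held 12 reads in all. Chaf1b, a subunit of the CAF-1 histone chaperone, had 5.12, 1.45, 2.9 and 2.95 CPM in P56 MI, against 0.248, 0.283, 0.834 and 0.14 CPM in P56 sham, 14 reads in all (log2 fold change 2.00 ± 0.28, SE, limma adjusted p = 1.49e-04). Tyms had 6.19, 3.47, 5.91 and 5.12 CPM in P56 MI, against 1.12, 1.7, 1.55 and 1.54 CPM in P56 sham (log2 fold change 1.50 ± 0.23, SE, limma adjusted p = 2.69e-04). No library of these 3 genes crossed from one group into the range of the other.

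Rrm2 rose as well, with 5.69, 2.98, 7.12 and 4.16 CPM in P56 MI, against 1.49, 2.55, 1.55 and 3.08 CPM in P56 sham, where the lowest infarcted library fell just inside the sham range (log2 fold change 1.03 ± 0.24, SE, limma adjusted p = 0.00846). Pcna was not called, with 7.84, 9.83, 17.4 and 9.89 CPM in P56 MI, against 10.7, 10.5, 9.89 and 8.76 CPM in P56 sham (log2 fold change 0.11 ± 0.22, SE, limma adjusted p = 0.817). Rfc1 had 19.6, 40.1, 63.8 and 22.3 CPM in P56 MI, against 51.6, 68.6, 36.1 and 60.4 CPM in P56 sham (log2 fold change -0.69 ± 0.28, SE, limma adjusted p = 0.133). Both groups overlapped for these genes, and P56 MI library 3 held the highest infarcted value in each. Pola1, the catalytic subunit of polymerase alpha, also stood out in that library, with 3.63, 3.55, 15.0 and 3.56 CPM in P56 MI, against 6.21, 6.7, 4.17 and 5.26 CPM in P56 sham (log2 fold change -0.08 ± 0.32, SE, limma adjusted p = 0.917). Without library 3, 26 genes were called higher and 2 lower, where the background of lower genes with all libraries was 1.03%, the lower ones being Rfc1 (-1.01, limma adjusted p = 0.00371) and Pola1 (-0.56, limma adjusted p = 0.0252). Without P56 MI library 2, 26 genes were called higher and none lower.

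Mcm2 had 26.9, 16.4, 21.4 and 21.9 CPM in P56 MI cardiomyocytes, against 10.7, 11.1, 10.1 and 10.6 CPM in P56 sham (log2 fold change 0.97 ± 0.17, SE, limma adjusted p = 9.56e-04). Gins2 had 3.14, 1.53, 3.64 and 1.91 CPM in P56 MI, against 0.372, 1.04, 1.19 and 0.911 CPM in P56 sham (log2 fold change 1.13 ± 0.25, SE, limma adjusted p = 0.00705). Lig1 had 12.5, 4.51, 11.1 and 7.98 CPM in P56 MI, against 3.23, 3.3, 2.26 and 2.03 CPM in P56 sham (log2 fold change 1.51 ± 0.25, SE, limma adjusted p = 6.48e-04). All 3 rose without overlap between the groups. Clspn had 2.48, 0.725, 4.11 and 1.04 CPM in P56 MI, against 0.248, 0.472, 0.358 and 0.35 CPM in P56 sham, where the sham group held 15 reads in all (log2 fold change 1.40 ± 0.29, SE, limma adjusted p = 0.00419). Tk1 had 10.5, 6.85, 7.65 and 8.68 CPM in P56 MI, against 3.72, 3.96, 4.05 and 4.7 CPM in P56 sham (log2 fold change 0.94 ± 0.18, SE, limma adjusted p = 0.00159). Cdc45 was not called, with 8.83, 5.56, 6.33 and 7.2 CPM in P56 MI, against 5.21, 5.57, 3.81 and 4.42 CPM in P56 sham (log2 fold change 0.50 ± 0.19, SE, limma adjusted p = 0.102). Clspn and Tk1 did not overlap between the groups, whereas Cdc45 did.

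Markers of some other cells rose in the same adult cardiomyocyte comparison, and those of others did not. The 12 general leukocyte markers, none of them at 0 in either group, summed to 110 to 364 CPM in P56 MI and 17.5 to 78.6 CPM in P56 sham cardiomyocytes, and all 12 were called higher. The 13 fibroblast markers summed to 1607 to 3705 CPM in P56 MI and 387 to 1139 CPM in P56 sham. Monocyte and macrophage markers had medians of 571 CPM in P56 MI and 150 CPM in P56 sham. Endothelial markers had medians of 1403 CPM in P56 MI and 1925 CPM in P56 sham, and B cell markers of 18.4 CPM in P56 MI and 20.0 CPM in P56 sham. Cardiomyocyte markers had medians of 194791 CPM in P56 MI and 200415 CPM in P56 sham. In the same comparison 13 of 16 mitosis genes rose. How much of the rise in the replication genes lay in cardiomyocytes and how much in such other cells was not tested.

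The neonatal response to infarction, P1 MI against P1 sham, was compared in the same way. With limma 0 of 40 genes were called in cardiomyocytes (background 0.343% in either direction), 0 in fibroblasts (2.37%) and 0 in endothelial cells (0.216%). At an unadjusted p under 0.05 the numbers were 7, 2 and 4 in the same order of populations. The background shares just given are for adjusted p and do not apply to these numbers, which are not read as a result. With adjusted p, edgeR and DESeq2 on the recovered reads also called 0 in each. Fitting only the 8 neonatal libraries gave 2 in endothelial cells, and leaving out libraries rich in 18S gave 1 in fibroblasts. The median log2 fold changes were -0.30, -0.10 and 0.15.

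Mcm5 had 71.1, 90.6, 80.4 and 65.9 CPM in P1 MI cardiomyocytes, against 118, 73.3, 133 and 119 CPM in P1 sham (log2 fold change -0.50 ± 0.29, SE, limma adjusted p = 0.544). Uhrf1 had 41.3, 54.0, 38.4 and 33.3 CPM in P1 MI, against 56.5, 55.0, 73.2 and 59.9 CPM in P1 sham (log2 fold change -0.56 ± 0.32, SE, limma adjusted p = 0.539). The Mcm5 groups overlapped through sham library 2, whereas every infarcted Uhrf1 value was below every sham value although the gene was not called. In P1 MI fibroblasts Uhrf1 had 55.3, 59.0, 67.4 and 56.9 CPM, against 67.7, 52.1, 66.9 and 62.1 CPM in P1 sham (log2 fold change -0.06 ± 0.29, SE, limma adjusted p = 0.966). In P1 MI endothelial cells Tyms had 51.1, 55.1, 46.0 and 42.3 CPM, against 38.2, 31.5, 36.8 and 34.0 CPM in P1 sham, without overlap but not called (log2 fold change 0.46 ± 0.15, SE, limma adjusted p = 0.182).

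Leukocytes were the exception, with 7 genes higher and 3 lower in P1 MI, where 22.6% of all genes were called higher and 22.6% lower, so that both shares of the 40 were below the background. The higher genes were Gins4 (0.55), Fen1 (0.53), Cdt1 (0.48), Rfc2 (0.41), Gins1 (0.41), Tk1 (0.34) and Rfc1 (0.27), in log2 units. The lower genes were Pola2 (-0.59), Cdc45 (-0.49) and Orc6 (-0.31). Pola2, the accessory subunit of polymerase alpha, had 23.4, 24.5, 25.7 and 25.4 CPM in P1 MI, against 34.4, 37.8, 37.3 and 41.1 CPM in P1 sham, without overlap (log2 fold change -0.59 ± 0.09, SE, limma adjusted p = 6.01e-05). Gins4 had 17.9, 24.0, 17.7 and 21.4 CPM in P1 MI, against 13.7, 14.6, 13.9 and 12.0 CPM in P1 sham (log2 fold change 0.55 ± 0.12, SE, limma adjusted p = 0.00141). None of the 10 reached a fold of 2, and the count was 6 without P1 sham library 1, P1 MI library 2 or P1 MI library 4. The general leukocyte markers had medians of 4948 CPM in P1 MI and 2129 CPM in P1 sham leukocytes, and the endothelial markers 795 CPM in P1 MI and 4566 CPM in P1 sham. The part of that difference in the calls was not tested.

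**Figure D4:**
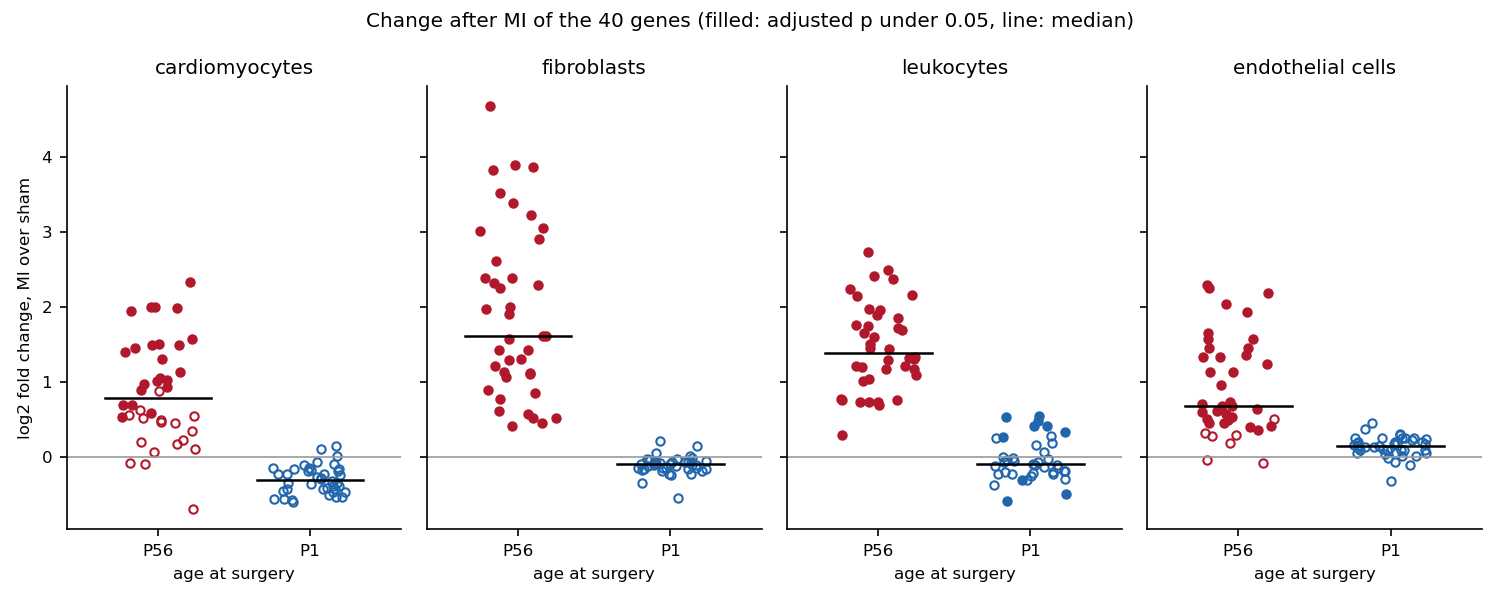
Points are log2 fold changes of MI over sham for the 40 genes, at P56 and at P1 in each population; filled points passed an adjusted p of 0.05 with limma and lines are medians. At P56 the medians are 0.79, 1.62, 1.39 and 0.68 in cardiomyocytes, fibroblasts, leukocytes and endothelial cells, and at P1 they lie between -0.30 and 0.15.

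The difference between the adult and the neonatal response was tested as an interaction, the MI change at P56 minus the MI change at P1. It was positive and called for 39 of 40 genes in fibroblasts (background 16.2% higher, median 1.76), the exception being Gins4 (0.40, limma adjusted p = 0.0782). In leukocytes it was called for 36 (background 23.7%, median 1.57), all but Gins4, Rfc1, Fen1 and Tk1. In cardiomyocytes it was called for 16 (background 1.69%, median 1.06) and in endothelial cells for 15 (background 3.39%, median 0.54). None of the 40 had a called negative interaction in any population with all libraries. Without P56 MI library 2 the counts were 40 in fibroblasts, 37 in leukocytes and 22 in cardiomyocytes.

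Uhrf1 had the largest interaction in fibroblasts (4.74 ± 0.41, log2 ± SE, limma adjusted p = 1.64e-06), cardiomyocytes (2.90 ± 0.45, adjusted p = 0.00221) and endothelial cells (2.12 ± 0.35, adjusted p = 0.00448), and Rrm2 in leukocytes (3.05 ± 0.20, adjusted p = 1.14e-07). In cardiomyocytes the 16 comprised 6 helicase loading genes, 2 activation genes, Prim1, Lig1, Tyms, Tk1 and all 4 chromatin genes, but no clamp or loader gene. Pcna was at 0.52 ± 0.32 there (adjusted p = 0.418) and at 1.03 ± 0.19 in endothelial cells (adjusted p = 0.00799). The cardiomyocyte count was 28 without P56 MI library 3, of which Rfc1 was negative (-1.15, limma adjusted p = 0.019). In P56 MI and P56 sham together, leaving out both libraries numbered 3 gave 30 in cardiomyocytes. The endothelial count was 28 without P56 MI library 2 and 9 without P1 sham library 3. The shares of all genes given for the interaction are from fits of all libraries and do not apply to counts with libraries left out.

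The level reached after adult infarction was then set beside the uninjured neonate, P56 MI against P1 sham. These comparisons share their sham or infarcted libraries with those above. In cardiomyocytes 37 of 40 genes were lower in P56 MI (background 32.9% lower, median log2 -2.21), and the exceptions were Gins4, Pola2 and Pold1. The mean P56 MI level was 19.2% of the P1 sham mean at the median gene, from 6.67% (Rrm2) to 104% (Gins4), and the P56 sham level was 11.3%. In endothelial cells 38 of 40 were lower (background 22.8%, median -0.99), and the P56 MI level was 48.9% of P1 sham, from 26.8% (Rrm2) to 89.5% (Pola2), against 29.2% in P56 sham. In fibroblasts 24 of 40 were lower and none higher (background 20%, median -0.64), at 69.8% of P1 sham, from 50.0% (Chaf1b) to 117% (Tyms), against 18.3% in P56 sham. Requiring a fold of at least 2 left 35 genes in cardiomyocytes (background 44.2%), 19 in endothelial cells (14.6%) and 1, Chaf1b, in fibroblasts (13.7%). Without P56 MI library 2 the counts were 36 lower in cardiomyocytes, 37 lower in endothelial cells, and 16 lower and 1 higher in fibroblasts. In cardiomyocytes scaling to nuclear genes moved the median of all genes by -0.76 and gave 40 of 40, a count to which the background without that scaling does not apply.

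In leukocytes the P56 MI level was 98.1% of P1 sham at the median gene, against 33.5% in P56 sham. In P56 MI against P1 sham 6 genes were called higher and 6 lower (background 30% higher and 28.5% lower). Both shares of the list were below the background. Fen1, Gins4, Gins1, Cdt1, Rfc1 and Rfc2 were the higher genes and Pola2, Cdc45, Chaf1b, Orc6, Pole and Rrm1 the lower ones. Fen1, the flap endonuclease that trims Okazaki fragments, had 1.97, 1.59, 2.63 and 2.44 CPM in P56 MI, against 1.05, 1.34, 1.25 and 0.898 CPM in P1 sham (log2 fold change 0.69 ± 0.18, SE, limma adjusted p = 0.00403). Scaling to nuclear genes gave 7 calls in place of 12, leaving out P56 MI library 2 gave 6 higher and 3 lower, and none of the 12 reached a fold of 2. The 2 leukocyte groups differed in their markers, with median sums for endothelial cells of 259 CPM in P56 MI and 4566 CPM in P1 sham, and for neutrophils of 468 CPM in P56 MI and 2734 CPM in P1 sham. Monocyte and macrophage markers had medians of 12261 CPM in P56 MI and 4627 CPM in P1 sham, and general leukocyte markers of 5121 CPM in P56 MI and 2129 CPM in P1 sham. The part of this in the similar levels was not tested.

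**Figure D5:**
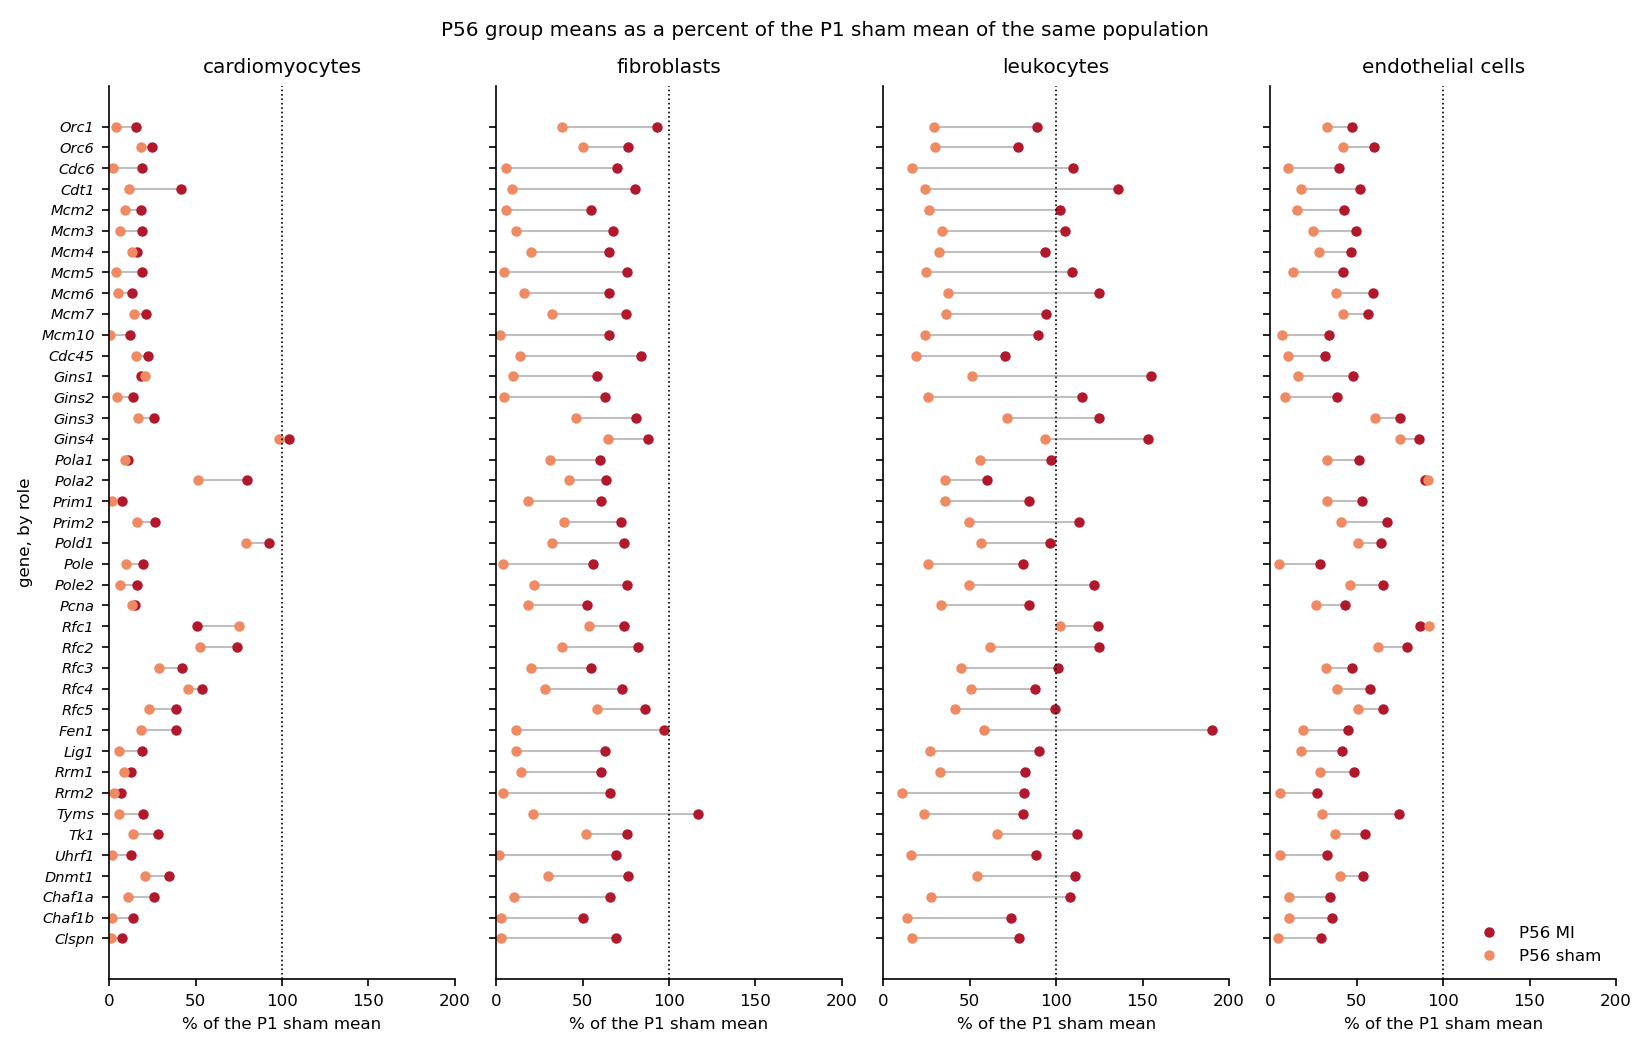
For each gene and population, points give the mean CPM of P56 MI and of P56 sham as a percent of the P1 sham mean; the dotted line marks 100%. The median P56 MI gene lies at 98.1% in leukocytes, 69.8% in fibroblasts, 48.9% in endothelial cells and 19.2% in cardiomyocytes.

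The populations were compared within sham hearts. At P1 the calls ran both ways in cardiomyocytes, where 12 genes were higher and 7 lower than in fibroblasts (background 34.3% and 38.7%), 22 higher and 4 lower than in leukocytes (33.4% and 37%), and 11 higher and 9 lower than in endothelial cells (35.2% and 39.9%). Only the share higher than in leukocytes was above the background, and every other share of the 40 was below it. Rfc4, a loader subunit, exceeded all 3 by 1.02, 1.39 and 1.36 log2 units against fibroblasts, leukocytes and endothelial cells, and Rrm2 by 1.01, 1.35 and 1.19 against the same populations. Rrm2 averaged 74.8 ± 8.69 CPM in cardiomyocytes, against 36.9 ± 4.33 CPM in fibroblasts, 28.9 ± 0.785 CPM in leukocytes and 32.4 ± 2.79 CPM in endothelial cells (mean ± SD, n = 4 each). Leaving out P1 sham cardiomyocyte library 2 gave counts of 21, 30 and 25 in either direction, and requiring a fold of at least 2 gave 2, 5 and 4 (background 33.6%, 29.4% and 35.2%). The shares with a fold of at least 2 were all below the background.

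At P56 most calls were lower in cardiomyocytes, and Fen1 was too low to be tested. Against fibroblasts the share of lower genes was close to the background. Against leukocytes and endothelial cells it was above the background. Of the other 39 genes, cardiomyocytes had 11 higher and 20 lower than fibroblasts (background 37.6% and 45.6%), 4 higher and 28 lower than leukocytes (37.7% and 41%), and 6 higher and 27 lower than endothelial cells (36.2% and 46.8%). Scaling to nuclear genes moved the median of all genes by -0.67, -0.59 and -0.75 against fibroblasts, leukocytes and endothelial cells, and gave 2 higher and 24 lower, 1 higher and 36 lower, and 2 higher and 33 lower. The background shares just given were taken without that scaling. They do not apply to these counts, which are not read as a result about the list. Prim1 averaged 0.665 ± 0.326 CPM in cardiomyocytes, against 4.52 ± 0.444 CPM in fibroblasts, 6.37 ± 0.772 CPM in leukocytes and 7.05 ± 1.08 CPM in endothelial cells, and was lower in each test (-2.14, -2.59 and -2.72). Over the 40 genes P56 sham leukocytes had the highest mean for 21 and cardiomyocytes the lowest for 23.

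Other genes of the same processes were read from lists that overlap none of the 40. Of 35 further replication fork genes, 25 fell and 2 rose in P56 sham against P1 sham cardiomyocytes, where 37% of all tested genes were called lower and 33.3% higher. In fibroblasts 30 fell and 3 rose, with 32.1% of all genes lower and 34.8% higher. After adult infarction 26 rose and 1 fell in leukocytes (background 30.7% higher and 28.8% lower), and 25 rose and 2 fell in fibroblasts (background 24.8% higher and 25.2% lower). In endothelial cells 20 rose (background 12.5% higher and 7.88% lower), and in cardiomyocytes 8 rose (background 8.66% higher). Asf1b, a histone chaperone, rose by 3.60 log2 units in fibroblasts and Hells, a chromatin remodeler, by 3.11 (limma adjusted p = 1.99e-08 and 1.46e-06). Of 28 further nucleotide synthesis genes, 1, Nme1, a nucleoside diphosphate kinase, rose in P56 MI cardiomyocytes (log2 1.08, adjusted p = 0.00222), a share below the background of 8.66%, while 18 rose and 4 fell in fibroblasts, 15 and 4 in leukocytes, and 12 and 1 in endothelial cells, to be read against the shares of all genes just given. Dctd, the deoxycytidylate deaminase, led in fibroblasts at 2.72 (adjusted p = 3.64e-08).

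Among 15 E2F and pocket protein genes, 9 rose and 3 fell both in fibroblasts and in leukocytes after adult infarction, 6 rose and 1 fell in endothelial cells, and 4 rose in cardiomyocytes. The shares of all tested genes called higher were 24.8% in fibroblasts, 30.7% in leukocytes, 12.5% in endothelial cells and 8.66% in cardiomyocytes, for these genes and for the mitosis genes that follow. The shares called lower are those given for the replication fork genes. In fibroblasts, leukocytes and endothelial cells the share of E2F and pocket protein genes that fell was below them. E2f1, an activating E2F, rose by 1.82 log2 units in cardiomyocytes (limma adjusted p = 4.37e-04), and E2f7, a repressing E2F, by 3.47 in fibroblasts (adjusted p = 3.73e-08). The 16 mitosis genes, read for comparison, rose in 13 cases in cardiomyocytes, 15 in leukocytes and 16 each in fibroblasts and endothelial cells, and all 16 were lower in P56 sham than in P1 sham cardiomyocytes (background 37% lower). Their summed level was lowest in library 2 of each P56 MI group: 66.5 against 85.5 to 315 CPM in cardiomyocytes, 204 against 322 to 560 CPM in endothelial cells, 796 against 957 to 1318 CPM in leukocytes, and 447 against 1097 to 1499 CPM in fibroblasts. In each P56 sham group it was highest in library 2, at 57.7, 183, 454 and 88.8 CPM for the populations as just listed, against at most 51.4, 71.6, 375 and 23.5 CPM.

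Within the list the genes moved together to differing degrees. Over the 64 libraries, which share depth, age and infarction effects, the median Pearson r of log2(CPM + 0.5) over the 780 pairs was 0.838, given as a description. Gins4 was least like the rest (mean r 0.19), followed by Rfc4 (0.43), Pola2 (0.50), Rfc1 (0.53) and Pold1 (0.57). Of the 40 genes 23 overlap another gene annotated by GENCODE on GRCm38, 12 on the same strand and 18 on the opposite strand, and no source used here says whether reads were counted by strand. Reads of such a gene and of its neighbour may then not be told apart. The level of Fen1 was low for a gene of this list, at 2.22 ± 0.412 CPM in P1 sham cardiomyocytes (mean ± SD, n = 4).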

How the data were processed

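RNA-seq of 64 libraries was used in 1 deposited table of genes by libraries. The libraries were made from total RNA with Ribo-Zero Gold depletion and TruSeq stranded kits and read as 50-base single ends, per the labels' protocols. Trimmomatic, STAR, HTSeq and edgeR are named with mm10, GRCm38 and GRCh38, per the submitters' processing notes, without versions or roles. The deposited values are labelled CPM, a normalised signal in which the authors divided reads by an effective library size, since columns sum to 776590 to 2627530. Every deposited value returned a whole read number within 0.01, so read numbers were recovered for the count tests.

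Fold changes were fitted with limma 3.58.1 (R 4.3.3) on log2(CPM + 0.5), with a mean-variance trend, over genes with at least 1 CPM in at least 4 of the libraries fitted. A fold change on this scale understates the change of low genes. The 16 libraries of a population shared 1 fit, and so did the 16 sham libraries of an age in the comparison of populations. P-values were adjusted by Benjamini-Hochberg over all genes and called under 0.05. The scripts were tested on simulated data. Alternatives were edgeR 4.0.16 and DESeq2 1.42.0 on the recovered reads, other scalings, filters and pseudocounts, a fold of at least 2, and leaving out libraries. Except where a fold of at least 2 is named, background shares are from limma fits of all libraries on the deposited CPM. They do not apply to counts under the other alternatives. The design table allowed for edgeR if the table held counts, and since it holds normalised values limma is the test used.

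The 40 genes, the other gene lists, the marker lists and the tests were chosen with earlier results of these data known. Values per library were to be given for 12 genes fixed by role, and fold changes for up to 2 called genes per role with the largest change, for calls against the majority, and for the most abundant gene of a role without a call. Other genes named with values were chosen after their values were seen. Motifs were searched in RefSeq promoter windows of 300 bases.

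Libraries share numbers across groups. Deviations from the group means were checked in the comparisons made here, which set populations against each other in sham hearts alone. They correlated by number in every pair for cardiomyocytes against each other population of P56 sham hearts (r 0.11 to 0.27 for cardiomyocytes and fibroblasts, 0.2 to 0.46 with leukocytes and 0.15 to 0.3 with endothelial cells), so there the numbers pair the libraries on the data alone. For P1 sham cardiomyocytes against endothelial cells r was 0.07 to 0.32, and all 4 cardiomyocyte libraries correlated best with their own number. The numbers may pair the libraries there too. In the remaining comparisons checked the lowest r was negative, and populations of infarcted hearts were not checked. In no group did replicate libraries agree within sampling noise, with a chi-square per gene of 7.36 to 656 over 96 pairs. A row with no gene symbol, at most 0.0157% of reads, was left out.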

Additional observations from a re-analysis of the deposited data

Results flagged for a closer look

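Dixon's test flags about 1 in 20 groups by chance if the tests are independent. The 12 genes fixed by role share libraries and move together, so no excess over chance can be read from the count. In 20 of 192 groups of 4 libraries, counted over these 12 genes, the highest or lowest library lay far from the other 3 by that test. Of these, 7 were P56 MI fibroblast library 2, which was low: Mcm5 had 26.7 CPM against 75.5 to 78.6 CPM in the other 3, Cdc45 7.09 against 17.5 to 18.6, Pole 13.8 against 42.7 to 48.2, and Pcna 16.2 against 28.4 to 30.7. Rrm2 had 9.15 CPM there against 28.7 to 29.7, Lig1 14.9 against 35.5 to 39.4, and Clspn 7.86 against 25.2 to 27.7. A further 4 were P56 MI leukocyte library 2, also low: Mcm2 had 57.6 CPM against 77.4 to 78.1, Mcm5 71.1 against 94.5 to 98.6, Cdc6 10.8 against 14.2 to 14.6, and Uhrf1 33.3 against 46.2 to 48.6.

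The other 9 were spread over groups. In P56 sham fibroblasts, library 4 was low for Cdc6 (0.685 CPM against 0.921 to 0.969) and Lig1 (5.14 against 6.04 to 6.22), and library 2 was high for Uhrf1 (1.65 against 0.806 to 0.942). Pole was high in P56 sham cardiomyocyte library 1 (6.7 CPM against 4.91 to 5.01). Mcm2 was high in P1 MI fibroblast library 3 (92.1 CPM against 77.8 to 79.8), Gins2 in P1 MI endothelial library 2 (14.9 against 10.9 to 11.4), and Rrm2 in P1 MI cardiomyocyte library 2 (76.0 against 57.9 to 60.8). Cdc6 was high in P1 sham endothelial library 3 (21.1 CPM against 18.8 to 19.2), and Cdc45 was low in P1 sham cardiomyocyte library 2 (22.1 against 33.1 to 34.0).

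The MI change differed between P56 and P1 for 39 pairs of a gene and a population among the 12 genes, by the limma interaction at an adjusted p under 0.05. The share of all tested genes with a called positive interaction depended on the population, so the 39 pairs have no common background. From low to high it was 1.69% (cardiomyocytes), 3.39% (endothelial cells), 16.2% (fibroblasts) and 23.7% (leukocytes). Values are log2 differences, P56 change minus P1 change, and all were positive. In cardiomyocytes they were 2.03 for Cdc6, 1.50 for Mcm2, 2.49 for Mcm5, 1.59 for Gins2, 2.07 for Lig1, 1.21 for Tk1 and 2.90 for Uhrf1. In fibroblasts all 12 genes differed, with 3.07 for Cdc6, 3.20 for Mcm2, 3.87 for Mcm5, 2.43 for Cdc45, 3.23 for Gins2, 3.61 for Pole, 1.77 for Pcna, 2.31 for Lig1, 3.57 for Rrm2, 0.69 for Tk1, 4.74 for Uhrf1 and 4.05 for Clspn. In leukocytes they were 2.71 for Cdc6, 2.11 for Mcm2, 2.21 for Mcm5, 2.24 for Cdc45, 1.70 for Gins2, 1.89 for Pole, 1.57 for Pcna, 1.74 for Lig1, 3.05 for Rrm2, 2.62 for Uhrf1 and 2.52 for Clspn. In endothelial cells they were 1.57 for Cdc6, 1.10 for Mcm2, 1.36 for Mcm5, 1.34 for Gins2, 2.02 for Pole, 1.03 for Pcna, 1.74 for Rrm2, 2.12 for Uhrf1 and 2.07 for Clspn.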

How the results depend on the processing

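Counts of called genes moved by over 1.5 times under few settings. Fitting only the compared libraries gave 13 for cardiomyocyte P56 MI against P56 sham (23 otherwise) and 2 for endothelial P1 MI against P1 sham (0). Requiring a fold of at least 2 gave 16 for endothelial P56 MI against P56 sham (33). For P56 MI against P1 sham it gave 19 in endothelial cells (38), 1 in fibroblasts (24) and 0 in leukocytes (12), and for leukocyte P1 MI it gave 0 (10). For cardiomyocytes in P1 sham it gave 2 against fibroblasts, 5 against leukocytes and 4 against endothelial cells, and in P56 sham 15 against fibroblasts. Nuclear scaling gave 7 for leukocyte P56 MI against P1 sham. Leaving out libraries over 5% 18S gave 1 for fibroblast P1 MI, and leaving out both P56 libraries 3 gave 30 for the cardiomyocyte interaction (16).

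Leaving out each library in turn gave 12 (without P1 sham library 3) to 28 (without P56 MI library 3) for the cardiomyocyte interaction, 9 to 28 for the endothelial interaction (15) and 6 to 13 for leukocyte P1 MI. No other count moved by over 1.5 times. Among single genes 29 results turned sign, 20 of them not called. In P1 MI against P1 sham, Pola1 in cardiomyocytes was -0.01 with edgeR, -0.08 without libraries over 5% 18S and -0.08 to 0.11 without single libraries. In fibroblasts Gins4 was -0.01 with median-of-ratios scaling and with edgeR and -0.03 to 0.06 without single libraries, Dnmt1 was 0.01 with nuclear scaling and -0.09 to 0.04, and Lig1 -0.10 to 0.00. In P1 sham, Clspn in cardiomyocytes against leukocytes was 0.00 without libraries over 5% 18S and -0.03 to 0.06 without single libraries.

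The 9 called results that turned sign did so under nuclear scaling in P56 sham cardiomyocytes: against fibroblasts Cdt1 (0.00), Gins4 (-0.13), Pola2 (-0.40), Pold1 (-0.01) and Rfc3 (-0.25), against leukocytes Pold1 (-0.38) and Rfc2 (-0.37), and against endothelial cells Pole (-0.25) and Rfc2 (-0.54). By construction this scaling removes mitochondrial and ribosomal RNA from the total. It moved the median of all genes by -0.12 in leukocytes for P56 sham against P1 sham and by 0.14 for P56 MI against P56 sham.

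With the replicate number as a block, the pairing gave 32, 32 and 33 calls for P56 sham cardiomyocytes against fibroblasts, leukocytes and endothelial cells (31, 32 and 33 without it). For P1 sham cardiomyocytes against endothelial cells, where the numbers may also pair the libraries, the block gave 23 calls (20 without it). In the other comparisons no pairing by number was seen. The block moved no count by over 1.5 times (20 for cardiomyocyte P56 MI against P56 sham, 12 for the endothelial interaction). Depth limits Mcm10, Orc1, Cdc6, Chaf1b and Clspn in P56 sham cardiomyocytes, with 6, 10, 12, 14 and 15 reads in the group.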
